A study of Mus musculus with 21 samples.

Results

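The SR splicing factor genes were taken as the rows of the expression files with the symbols Srsf1, Srsf2, Srsf3, Srsf4, Srsf5, Srsf6, Srsf7, Srsf9, Srsf10 and Srsf11, which gave 10 of the 23827 gene rows, with no symbol repeated. They were chosen by name, with earlier results of these data known. RNA of embryonic day 14.5 mouse forebrain and kidney was measured by translating ribosome affinity purification, in which a tagged ribosomal protein is pulled down with the RNA its ribosomes hold (the translatome), beside the RNA of the same cleared tissue lysates before the pull-down (the transcriptome). There were 21 libraries in 7 groups of 3. All embryos carried 1 copy of Gt(ROSA)26Sor-mCherry-Rpl10a, an allele made from a single targeted stem cell clone, in which a ubiquitous promoter drives mCherry-tagged Rpl10a once Cre recombinase has removed a stop cassette. The brain transcriptome, brain translatome, kidney transcriptome and kidney translatome came from Sox2Cre+/-;Gt(ROSA)26Sor-mCherry-Rpl10a+/- embryos, where Cre acts in the whole embryo proper. The brain EC and kidney EC translatomes (EC, endothelial cells) came from Cdh5CreERT2+/-;Gt(ROSA)26Sor-mCherry-Rpl10a+/- embryos, where an endothelial promoter drives a Cre that works only after tamoxifen. Tamoxifen was given by oral gavage ahead of harvest, and only this Cre line needs it. The Emx1-lineage translatome came from Emx1Cre+/-;Gt(ROSA)26Sor-mCherry-Rpl10a+/- forebrains, where Cre marks cells of the dorsal forebrain and their descendants. The forebrain tissue included part of the diencephalon. Samples were pools of organs, so no value belongs to a single embryo, and each number within a group was another pool.

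SR proteins carry RNA recognition motifs and a tail rich in arginine-serine dipeptides, bind exonic enhancers in pre-mRNA and recruit the spliceosome to nearby splice sites. Several of them also travel to the cytoplasm with mRNA and act in its export and translation. Their own genes are known for alternative exons and retained introns that bring in a premature stop codon, and such transcripts are either kept in the nucleus or removed by nonsense-mediated decay once a ribosome has read them. By structure, Srsf1, Srsf4, Srsf5, Srsf6 and Srsf9 hold a pair of RNA recognition motifs, while Srsf2, Srsf3, Srsf7, Srsf10 and Srsf11 hold a single one.

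In the GRCm38 annotation used here (GENCODE vM21), 9 of the 10 genes had at least 1 transcript marked as a target of nonsense-mediated decay, Srsf10 being the exception, and 8 had a retained-intron transcript, Srsf9 and Srsf10 being the exceptions. The deposited rows merge RefSeq accessions of a gene. Those of Srsf3, Srsf7 and Srsf9 each include 1 noncoding accession beside the mRNA accessions, so their counts can hold reads of such transcripts, and a row cannot separate them from the productive mRNA. Exons found in decay transcripts and in no coding transcript are shown for the genes whose rows include a noncoding accession and for Srsf11, which had the lowest ratio of ribosome-bound to total RNA below, because a reader can see in them how early the frame ends. Each sequence runs 5′ to 3′ from the start of the exon to its stop codon, which is in capitals.
Srsf3, chr17:29039454-29039487, plus strand: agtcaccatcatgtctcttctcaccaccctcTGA
Srsf7, chr17:80205054-80205081, minus strand: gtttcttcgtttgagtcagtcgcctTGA
Srsf9, chr5:115328347-115328428, plus strand: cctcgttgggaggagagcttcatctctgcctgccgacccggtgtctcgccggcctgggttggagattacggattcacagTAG
Srsf11, chr3:158024209-158024231, minus strand: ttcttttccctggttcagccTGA
Srsf11, chr3:158023310-158023359, minus strand: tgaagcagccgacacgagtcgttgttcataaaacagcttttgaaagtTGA
The Srsf3 stretch takes 34 bases of an exon of 456, the Srsf7 stretch 28 of 460 and the Srsf9 stretch 82 of 358. The 2 Srsf11 stretches take 23 of 109 and 50 of 117 bases. The decay transcripts shown for Srsf3 and Srsf7 match an accession of the counted row. Those shown for Srsf9 and Srsf11 were not matched to one, so reads of these printed exons are not shown to be in those rows. Reads of any exon that an unmatched transcript shares with a counted one would still be counted, for every member. Srsf11 had 3 decay and 11 retained-intron transcripts in the annotation, so its row too can hold reads of unproductive RNA.

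In GRCm38, those with a pair of motifs are Srsf1 (chr11:88047373-88053755, plus strand), Srsf4 (chr4:131873617-131901706, plus), Srsf5 (chr12:80945504-80950507, plus), Srsf6 (chr2:162931528-162937121, plus) and Srsf9 (chr5:115327177-115333080, plus). Those with a single motif are Srsf2 (chr11:116849901-116853094, minus), Srsf3 (chr17:29032628-29043373, plus), Srsf7 (chr17:80200080-80207307, minus), Srsf10 (chr4:135855747-135869908, plus) and Srsf11 (chr3:158010473-158036639, minus). The library kit does not mark the strand, and some rows can hold reads of neighbours: exons of the opposite-strand gene Gm12992 cover 43.0% of the exon bases of Srsf4, and those of Mettl23 and Mfsd11 cover 15.6% and 9.74% of Srsf2. These shares are of the exons of all annotated transcripts, and the counted rows are shorter. The longest coding transcript matched Gm12992 over 1447 bases for Srsf4 (row length 2272) and Mettl23 over 460 for Srsf2 (row length 1918). Beside these overlapping genes, near-identical copies, at 95% identity or more over at least 200 bases, were found for Srsf3 (4 copies, 3 of them pseudogenes), Srsf5 (1 pseudogene) and Srsf10 (2 pseudogenes), so their reads could be split.

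Between 21760652 and 79231692 reads were counted per library (median 43190754), and a member row held 2177 to 52108 of them in a library, so none was at the limit of detection. Levels are given as RPKM (reads per kilobase of transcript, scaled to the library's mRNA reads), which can be compared between genes. The endothelial labels held by the summed RPKM of 5 endothelial markers. It was 1320 to 1384 in the brain EC and 1210 to 1334 in the kidney EC translatome. The whole-organ translatomes had 62.8 to 74.7 and 194 to 205, and the Emx1-lineage 4.22 to 4.53. Neural markers still summed to 278 to 384 RPKM in the brain EC translatome, and kidney markers to 64.2 to 81.7 in the kidney EC translatome. Mural cell markers summed to 97.1 to 109 RPKM in the kidney EC against 101 to 118 in the kidney translatome. In the brain EC they summed to 20.4 to 24.7 against 39.1 to 51.7. At the threshold given below, Cspg4 was higher in the brain EC, Cspg4 and Abcc9 in the kidney EC, and the other mural markers were lower in each. In the Emx1-lineage Sox3, Neurod6 and Emx1 were higher and Tubb3 and Chd5 lower than in the brain translatome. Fewer cells of a type and less RNA per cell cannot be told apart in these bulk samples.

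In total RNA of both organs, Srsf2, a regulator of exon inclusion that stays in the nucleus, was the most abundant of the 10 and Srsf10, a splicing repressor when dephosphorylated, the least. Srsf2 measured 222 ± 7.61 RPKM in the brain transcriptome and 357 ± 9.17 in the kidney transcriptome (SD, n = 3), and Srsf10 46.8 ± 0.758 and 61.8 ± 2.35. In the brain transcriptome, Srsf6 (137 RPKM), Srsf1 (136) and Srsf7 (135) followed Srsf2 and did not differ from each other beyond their spread. Below them came Srsf11 (102), then Srsf5 (84.4) and Srsf4 (77.6), whose replicates overlapped, and then Srsf3 (71.5) and Srsf9 (69.4), which overlapped too. The order was another in ribosome-bound RNA. Srsf9 stood second after Srsf2 in the brain translatome, at 129 RPKM, apart from Srsf7 (118) below it, while Srsf11 was down with Srsf5 in the last 3 at 51.3 and 53.4 RPKM. In the kidney, Srsf9 and Srsf11 overlapped in total RNA at 112 and 111 RPKM, and stood at 209 and 67.3 in the translatome.

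**Figure D1:**
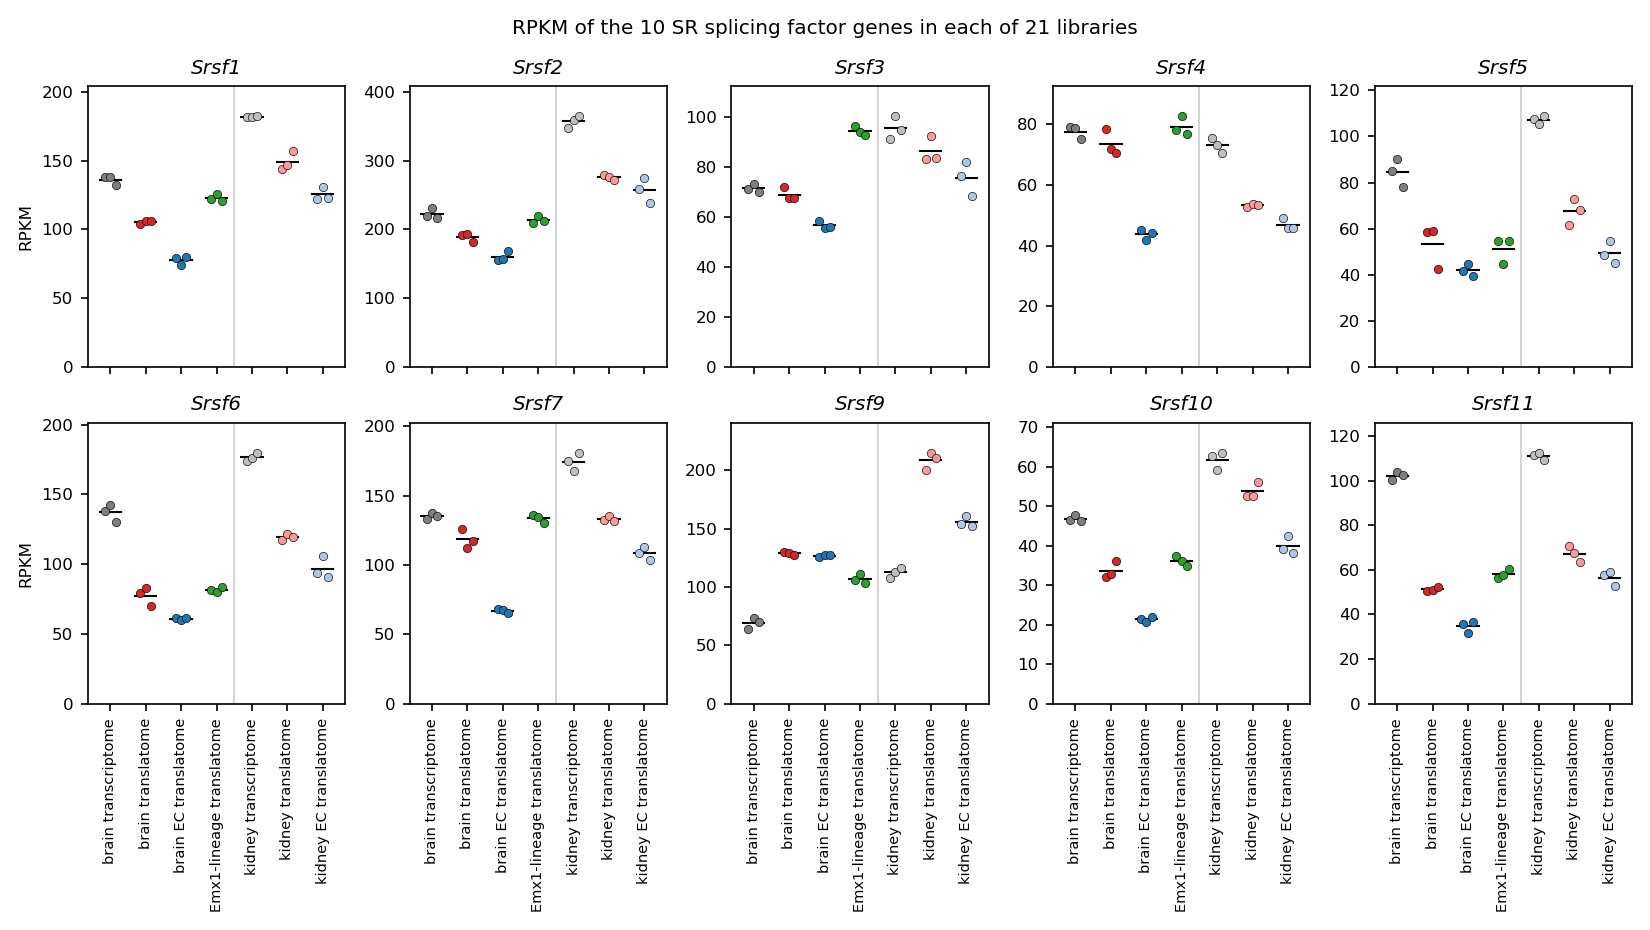
RPKM (vertical axes, from 0) of each of the 10 genes in the 7 groups (horizontal axes); each point is a library and each bar the mean of 3, with forebrain groups left and kidney groups right of the grey line. Srsf9 alone has both whole-organ translatomes above their transcriptomes, and Srsf1, Srsf5, Srsf6, Srsf10 and Srsf11 have all translatomes below the transcriptome of their organ.

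The first comparison asks how far ribosome-bound RNA follows total RNA for these genes. In the forebrain Srsf9 rose and Srsf1, Srsf5, Srsf6, Srsf10 and Srsf11 fell in the translatome relative to the transcriptome. In the kidney Srsf9 rose as well, and Srsf2, Srsf4, Srsf5, Srsf6, Srsf7 and Srsf11 fell. Passing here means an adjusted p under 0.001 (edgeR quasi-likelihood test, Benjamini-Hochberg over all rows), and fold changes are edgeR's on counts, relative to the bulk of the rows. Thus 1 member was higher and 5 lower in the forebrain, where 18.6% of 19446 rows were higher and 18.5% lower. In the kidney 1 was higher and 6 lower, where 14.9% of 19336 rows were higher and 15.8% lower. Set against mRNA rows with a mean of at least 20 RPKM, which is where the members lie, the background was 45.2% higher and 19.3% lower in the forebrain (4646 rows) and 38.0% higher and 24.6% lower in the kidney (4951 rows). The median log2 fold change of the members was −0.31 in the forebrain and −0.41 in the kidney, beside 0.21 and 0.12 for those mRNA rows and −0.01 and −0.03 for all rows.

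**Figure D2:**
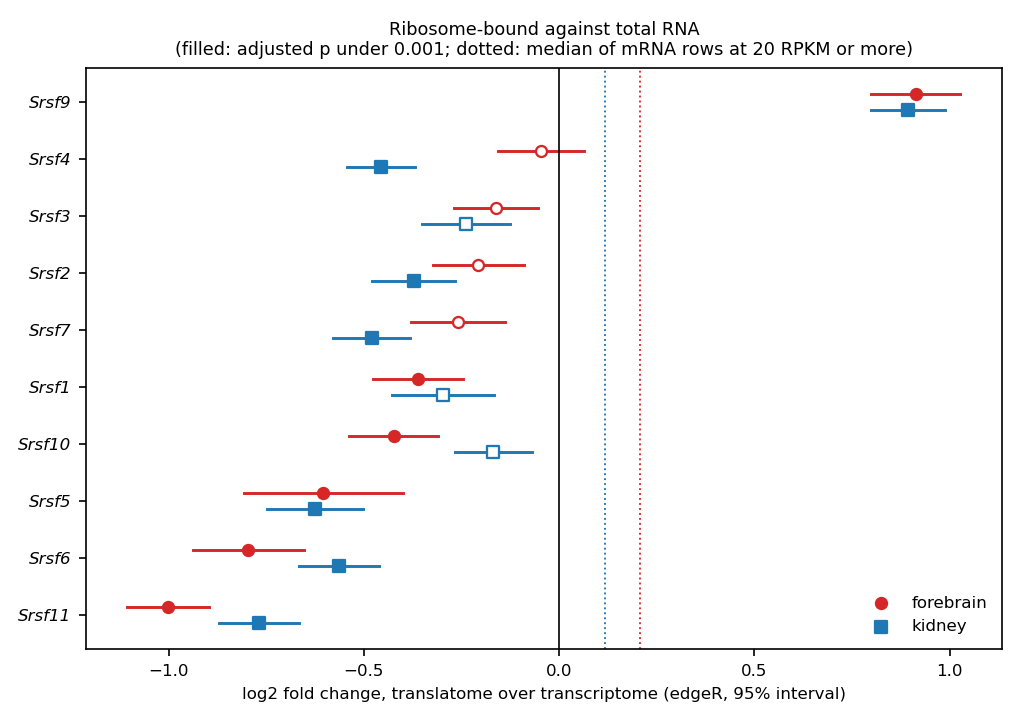
Log2 fold change of the translatome over the transcriptome (horizontal axis) for the 10 genes, ordered by the forebrain value, with 95% intervals from edgeR (n = 3 against 3 in each organ). Red circles are forebrain and blue squares kidney, filled where the adjusted p was under 0.001, and the dotted lines mark the medians of mRNA rows with at least 20 RPKM (0.21 and 0.12). Srsf9 lies at 0.91 and 0.89, and Srsf11 at the other end at −1.001 and −0.77.

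Srsf9, a small SR protein that acts in splice site choice, measured 64.3, 73.7 and 70.1 RPKM in the 3 brain transcriptomes and 129.7, 129.5 and 127 in the brain translatomes. Every translatome stood well above every transcriptome, and the replicates of the translatome lay closer together than those of total RNA. The log2 fold change was 0.91 (SE 0.053, adjusted p = 4.1e-09 by edgeR), a 1.88-fold difference. In the kidney it went from 108, 113 and 116 RPKM to 201, 215 and 211. The log2 fold change there was 0.89 (SE 0.043, adjusted p = 1e-07 by edgeR), or 1.86-fold. In rank, 87.7% of the expressed mRNA rows lay below Srsf9 in the forebrain and 93.1% in the kidney.

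Srsf11, an SR-related protein found with the factors that define the 3′ splice site, stood at the other end. It measured 100.2, 104 and 103 RPKM in the brain transcriptomes and 50.4, 51.0 and 52.5 in the translatomes, with no overlap. The log2 fold change was −1.001 (SE 0.049, adjusted p = 8.6e-10 by edgeR), and 2.95% of the expressed mRNA rows lay lower. Its kidney values were 112, 113 and 109 RPKM in total and 70.6, 67.7 and 63.4 in ribosome-bound RNA, again without overlap. This was a difference of −0.77 on the log2 scale (SE 0.046, adjusted p = 3.9e-07 by edgeR), and 3.47% of the rows lay lower.

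Srsf6 and Srsf5, close relatives of Srsf4, fell in both organs. Srsf6 measured 138, 143 and 130.1 RPKM in the brain transcriptomes against 79.3, 83.0 and 69.7 in the translatomes. In the kidney its values were 174, 176 and 179.8 against 117, 122 and 119, so that the groups stood far apart in both organs. The log2 fold changes were −0.80 (SE 0.066, adjusted p = 1.5e-07 by edgeR) and −0.56 (SE 0.046, adjusted p = 2.8e-06). Srsf5 measured 84.9, 90.01 and 78.2 RPKM in the brain transcriptomes and 58.4, 59.1 and 42.6 in the translatomes, the third being the lowest of them by a wide margin. In the kidney it measured 107, 105 and 109 against 61.5, 72.7 and 68.1. The groups did not overlap in either organ. The log2 fold changes were −0.60 (SE 0.094, adjusted p = 7.2e-05 by edgeR) and −0.63 (SE 0.055, adjusted p = 4.8e-06). Within the sequencing lane that the 3 brain translatomes shared with 1 brain transcriptome, the Srsf5 value was as large, at −0.63 (adjusted p = 0.0024 by edgeR, with the lone transcriptome taken to vary like the other libraries).

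Srsf1, a shuttling factor that also promotes translation, measured 132 to 138 RPKM in the brain transcriptome and 104 to 106 in the translatome, without overlap. Its log2 fold change was −0.36 (SE 0.054, adjusted p = 4.3e-05 by edgeR). In the kidney the value was −0.30 (SE 0.058) and did not pass (adjusted p = 0.0014). A fit with the tissue sample as a block was also made, since the 2 libraries of a number came from the same tissue pool. There it passed (adjusted p = 1.3e-14 by edgeR), but the kidney block fit took its variance wholly from the trend over genes. Its p-values, for Srsf1 and Srsf10 alike, are thus not a measure of the pairing alone. Srsf10 showed the same order of the organs. It fell by 0.42 on the log2 scale in the forebrain (SE 0.053, adjusted p = 8.5e-06 by edgeR), and its value within the shared lane, again 3 libraries against 1, was as large (−0.43, adjusted p = 0.0011). In the kidney it had −0.17 (SE 0.044, adjusted p = 0.0086), which passed with the block (adjusted p = 3.9e-05).

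Srsf2 and Srsf7, the latter a shuttling protein that serves mRNA export, passed in the kidney alone. Srsf2 measured 347 to 365 RPKM in the kidney transcriptome and 272 to 278 in the translatome, and its log2 fold change was −0.37 (SE 0.048, adjusted p = 7.7e-05 by edgeR). Within the lane that the 3 kidney transcriptomes shared with 1 translatome the value was as large, at −0.39 (adjusted p = 0.0031, 3 libraries against 1). Srsf7 measured 167 to 181 and 132 to 135 RPKM, and its log2 fold change was −0.48 (SE 0.044, adjusted p = 7.1e-06 by edgeR). In the forebrain both had smaller values, −0.21 for Srsf2 (SE 0.054, adjusted p = 0.0045) and −0.26 for Srsf7 (SE 0.056, adjusted p = 0.0012). With the tissue sample as a block both passed there, at adjusted p = 0.00097 and 0.00013 by edgeR. Srsf3, the smallest SR protein, which also couples splicing to export, passed in neither organ. Its log2 fold change was −0.16 in the forebrain (SE 0.050, adjusted p = 0.013) and −0.24 in the kidney (SE 0.050, adjusted p = 0.0023), where it passed with the block (adjusted p = 1.8e-09). With the block, 1 member was higher and 7 lower in the forebrain and 1 higher and 9 lower in the kidney. The number of all kidney rows passing rose with the block too, as given at the end. Shares of all rows by direction are not given for the block, so these counts do not set the members apart. The kidney values of the block fit rest on a variance that was taken wholly from the trend over genes.

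Srsf4 was the member for which the organs differed. In the forebrain it measured 78.9, 78.7 and 75.2 RPKM in total and 78.3, 71.9 and 70.6 in ribosome-bound RNA. These overlapped, and the log2 fold change was −0.05 (95% interval −0.16 to 0.06, adjusted p = 0.47 by edgeR). In the kidney it went from 75.5, 73.3 and 70.4 RPKM to 52.7, 53.7 and 53.4, with no overlap. The log2 fold change was −0.46 (SE 0.039, adjusted p = 4.1e-06 by edgeR). The difference between the organs, tested as an interaction over the 12 Sox2Cre libraries, was 0.39 on the log2 scale (SE 0.070, adjusted p = 0.00076 by edgeR). It was the only 1 of the 10 to pass, where 2.35% of 20108 rows passed in that direction and 4.12% in the other. With single libraries left out the difference stayed between 0.33 and 0.43, and it no longer passed (adjusted p from 0.0014 to 0.0029 by edgeR) without brain transcriptome 1, 2 or 3, kidney transcriptome 1 or 2, or kidney translatome 1, 2 or 3. Within 1 lane per organ, where each organ has an arm of 1 library, it was 0.35 (adjusted p = 0.051). No member was lower in the forebrain at this threshold. At an unadjusted p under 0.05, 3 were, and DESeq2 called 1, Srsf11 (−0.26, adjusted p = 8.4e-05), with no share of all rows given for these calls. By edgeR the organ difference of Srsf11 was −0.25 (SE 0.065, adjusted p = 0.010) and that of Srsf10 −0.27 (SE 0.069, adjusted p = 0.0085). For Srsf9 it was 0.00 with a 95% interval of −0.14 to 0.14, which changed sign under other scalings, and for Srsf5 0.00 (−0.27 to 0.28), which did so too.

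The same contrast can be read within each library, where no scaling between libraries enters. Srsf9 made up 5.99 to 6.63% of the summed RPKM of the 10 genes in the brain transcriptome and 14.1 to 14.6% in the brain translatome. In the kidney it made up 7.53 to 7.91% and 16.8 to 17.4%. The ratio of Srsf9 to Srsf11 was 0.642 to 0.708 in brain total RNA and 2.43 to 2.57 in ribosome-bound RNA, and 0.967 to 1.06 and 2.84 to 3.33 in the kidney. The ratio of Srsf4 to Srsf6 was 0.551 to 0.577 in the brain transcriptome and 0.866 to 1.01 in the translatome, while in the kidney it was 0.392 to 0.435 and 0.441 to 0.450.

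**Figure D3:**
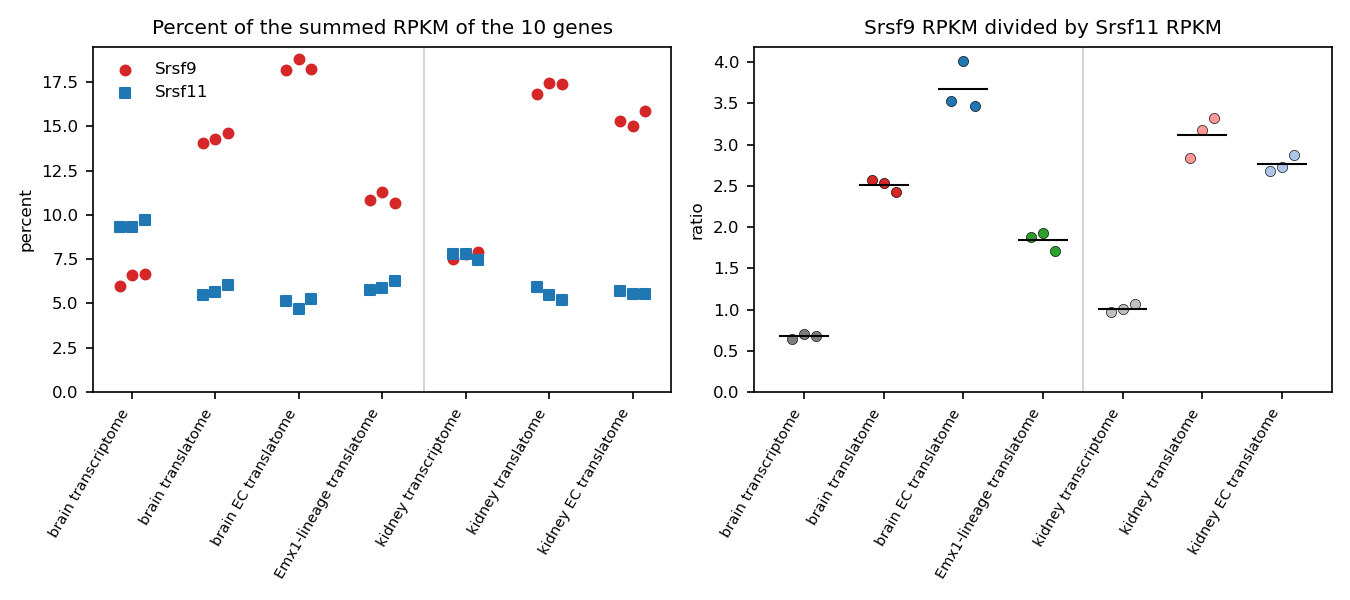
Left, share of Srsf9 (circles) and Srsf11 (squares) in the summed RPKM of the 10 genes (percent, from 0); right, RPKM of Srsf9 divided by that of Srsf11 (ratio, from 0; bars are means of 3), by group, 1 point a library. The ratio is 0.642 to 1.06 in the transcriptomes and 1.71 to 4.02 in the translatomes.

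Transcript length goes with ribosome association across all mRNAs of these libraries, so each member was set beside mRNA rows of like length. Among mRNA rows over 1 RPKM in total RNA, the median log2 fold change went from 0.88 in the shortest of 10 equal groups by length (median length 872 bases) to −0.42 in the longest (7632 bases) in the forebrain, and from 0.60 to −0.21 in the kidney. Srsf9 has the shortest row of the 10, at 1173 bases, and lies at the lower edge of the second shortest group, whose median was 0.43 in the forebrain and 0.20 in the kidney. It exceeded that median by 0.48 and 0.69. The shortest group ends at 1171 bases in the forebrain and 1149 in the kidney, so the excess depends on where the groups are cut. Srsf9 had 0.91 and 0.89, beside medians of 0.88 and 0.60 in that shortest group. The other members lay below the median of their own length group, 9 of 10 in either organ. The distance was widest for Srsf11 (2993 bases), −0.96 in the forebrain and −0.71 in the kidney, and for Srsf5 (1662 bases), −0.84 and −0.71. It was least for Srsf1, the longest at 5412 bases, in the forebrain (−0.09) and for Srsf10 in the kidney (−0.11).

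**Figure D4:**
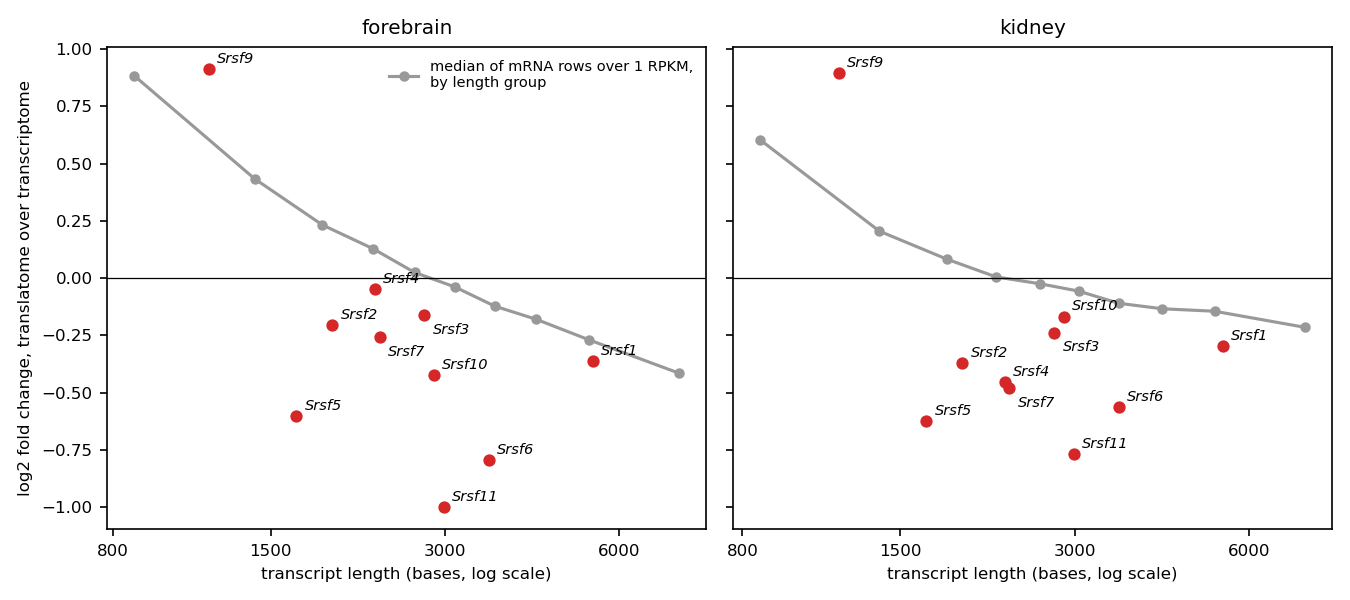
Log2 fold change of translatome over transcriptome (vertical axis) against transcript length in bases (log scale) for the 10 genes (red, named) and for the medians of 10 equal length groups of the mRNA rows over 1 RPKM (grey). Srsf9, at 1173 bases, lies above the grey line in both organs and the other 9 below it.

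Markers of other cells moved with the same contrast. Red blood cell markers summed to 185 to 428 RPKM in the brain transcriptome and 98.4 to 192 in the translatome, and to 351 to 664 and 91.8 to 173 in the kidney. Of the 4 markers tested, 2 fell in the forebrain and 3 in the kidney, and none rose. Among the 5 endothelial markers 2 rose in the forebrain and 3 in the kidney, where their sums went from 50.4 to 61.3 up to 62.8 to 74.7 RPKM and from 151 to 165 up to 194 to 205. Of 5 mural cell markers, Kcnj8 rose and Pdgfrb fell in the forebrain, while in the kidney Cspg4 and Kcnj8 rose and Pdgfrb fell, and their sum went from 72.3 to 94.1 up to 101 to 118 RPKM. Of 5 kidney markers, Foxd1 rose and Pax2 and Pax8 fell in the kidney, with sums of 349 to 367 and 358 to 397 RPKM, and of 5 neural markers Tubb3 and Emx1 rose and Chd5 fell in the forebrain, with sums of 1304 to 1388 and 1553 to 1608. The part of these cells in the member values was not tested.

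The proteins that work with SR proteins were described in the same way. SRPK and CLK kinases phosphorylate the arginine-serine tail and Tnpo3 imports the phosphorylated proteins into the nucleus. Of these 8 genes, 6 fell in the forebrain and 7 in the kidney and none rose (medians −0.82 and −0.93), beside 19.3% and 24.6% of expressed mRNA rows that were lower. Clk1 went from 69.0 ± 1.97 to 22.2 ± 5.15 RPKM in the forebrain (SD, n = 3), with log2 fold changes of −1.95 (SE 0.11, adjusted p = 4.8e-09 by edgeR) and −1.92 in the kidney (SE 0.076, adjusted p = 4.2e-08). Of 15 coactivators and related proteins with an arginine-serine domain, 12 fell in either organ, none rose in the forebrain and 1 in the kidney (medians −0.61 in both), against the same background. Luc7l3, a U1 snRNP-associated protein, had −2.18 in the forebrain (SE 0.071, adjusted p = 3.6e-11 by edgeR) and −1.59 in the kidney (SE 0.060, adjusted p = 3.6e-08).

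Counts for the other lists are read against the expressed mRNA rows, of which 45.2% were higher and 19.3% lower in the forebrain and 38.0% higher and 24.6% lower in the kidney. Of 24 Sm and core snRNP genes 12 rose and 3 fell in the forebrain, and 7 rose and 7 fell in the kidney (medians 0.31 and 0.06, beside 0.21 and 0.12 for those rows), shares that lie near the background for higher values in the forebrain. Snrpg, an Sm ring protein, had 1.62 in the forebrain (SE 0.12, adjusted p = 4.5e-08 by edgeR) and 1.46 in the kidney (SE 0.091, adjusted p = 4.9e-07). Sf3b1, a large U2 snRNP subunit, had −0.90 in the forebrain (SE 0.061, adjusted p = 1.9e-08 by edgeR) and −0.18 in the kidney (SE 0.047, adjusted p = 0.0069). Of the 19 genes found for hnRNP and PTB proteins, which often oppose SR proteins at exons, 3 rose and 6 fell in the forebrain, and none rose and 11 fell in the kidney (medians −0.02 and −0.36). Hnrnpab had 0.49 (SE 0.058, adjusted p = 5.4e-06 by edgeR) and 0.13 (SE 0.059, adjusted p = 0.11), and Hnrnpu −0.63 (SE 0.064, adjusted p = 1e-06) and −0.78 (SE 0.060, adjusted p = 1.9e-06).

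Among the 8 factors of nonsense-mediated decay, 1 rose and 6 fell in the forebrain and 1 rose and 4 fell in the kidney (medians −0.32 and −0.30). Of the expressed mRNA rows, 45.2% were higher and 19.3% lower in the forebrain, and 38.0% and 24.6% in the kidney. Upf3a rose in both, by 0.58 (SE 0.056, adjusted p = 7.2e-07 by edgeR) and 0.39 (SE 0.068, adjusted p = 0.00063), and Smg1, the kinase of the pathway, fell by 1.11 (SE 0.093, adjusted p = 1.6e-07) and 0.54 (SE 0.094, adjusted p = 0.00060). Of the 3 closest relatives of the members, none passed in the forebrain. In the kidney Srsf12 rose by 0.996 on the log2 scale from 1.52 ± 0.258 to 3.04 ± 0.266 RPKM (SE 0.14, adjusted p = 0.00018 by edgeR), and Tra2a fell by 0.50 (SE 0.059, adjusted p = 4e-05). Tra2b had 0.07 in the forebrain (SE 0.060, adjusted p = 0.37) and −0.21 in the kidney (SE 0.051, adjusted p = 0.0063).

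The second comparison asks whether ribosome-bound SR mRNAs differ between a lineage and its organ. In brain endothelial cells Srsf4, Srsf7 and Srsf10 fell relative to the whole-forebrain translatome and no member rose, where 24.8% of 19103 rows were higher and 21.4% lower. Srsf7 measured 68.0, 67.3 and 65.1 RPKM in the brain EC translatome and 126, 112 and 117 in the brain translatome, with no overlap. Its log2 fold change was −0.54 (SE 0.066, adjusted p = 8.6e-06 by edgeR). Srsf4 measured 45.1, 41.8 and 44.1 RPKM against 78.3, 71.9 and 70.6, again far apart, with a log2 fold change of −0.46 (SE 0.066, adjusted p = 3.3e-05 by edgeR). Srsf10 measured 21.4, 20.8 and 21.96 against 32.0, 32.8 and 36.2, with −0.37 (SE 0.068, adjusted p = 0.00031 by edgeR), which stayed between −0.40 and −0.32 with single libraries left out but no longer passed without brain EC 1 or brain translatome 1 or 3 (adjusted p from 0.0012 to 0.0022). Srsf9 had 0.26 (SE 0.059, adjusted p = 0.0015 by edgeR). At an unadjusted p under 0.05 it was the 1 member that was higher, and DESeq2 called it (adjusted p = 2.6e-05). For Srsf3 the value was 0.00 with a 95% interval of −0.14 to 0.13. The median log2 fold change of the members was −0.11, beside −0.02 for mRNA rows with at least 20 RPKM.

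These fold changes depend on how libraries are scaled. Scaled by total counts alone, as RPKM values nearly are, the median of all rows moved by −0.30 for the brain EC and −0.37 for the kidney EC against their organ translatomes, and the share of higher among passing rows went from 53.7% to 36.1% and from 52.7% to 21.7%. With total counts 7 members were lower in brain EC, none higher, and the Srsf9 value was −0.03. For this reason RPKM differences between these groups look larger than the fold changes. Each cell type group had a sequencing lane of its own, so lane and group cannot be told apart. Each also had another Cre line than the whole-organ translatomes, and the endothelial groups came from the line that needs tamoxifen. Cre line and tamoxifen thus cannot be told apart from cell type either.

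In kidney endothelial cells no member passed in either direction by edgeR, where 16.7% of 18940 rows were higher and 15.0% lower. At an unadjusted p under 0.05, 2 were higher and none lower, and DESeq2 called 1, Srsf2 (0.26, adjusted p = 0.00044). The shares of all rows for these looser calls are not given. By edgeR Srsf2 had 0.25 (SE 0.067, adjusted p = 0.0075) and Srsf4 0.17 (SE 0.054, adjusted p = 0.018). The 95% intervals of Srsf9 (−0.19 to 0.05) and Srsf7 (−0.06 to 0.19) spanned 0. The value of Srsf4 had the opposite sign to that in brain endothelial cells, and the difference between the organs was not tested. The median log2 fold change of the members was 0.07, beside 0.16 for mRNA rows with at least 20 RPKM. With total counts 4 members were lower and none higher, a scaling under which the passing rows as a whole lean to lower values, as given above.

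In the Emx1-lineage Srsf1, Srsf2, Srsf3 and Srsf11 rose and Srsf9 fell relative to the forebrain translatome. Of 19006 rows, 9.2% were higher and 12.8% lower (41.7% of passing rows were higher, and 29.9% with total counts). The median log2 fold change of the members was 0.19, beside 0.07 for mRNA rows with at least 20 RPKM. Srsf3 measured 96.5, 94.2 and 92.8 RPKM in the Emx1-lineage and 71.9, 67.5 and 67.4 in the whole forebrain. The groups stood apart, and the log2 fold change was 0.50 (SE 0.045, adjusted p = 3.9e-07 by edgeR). Srsf1 measured 122, 126 and 121 against 104, 106 and 106 RPKM, with 0.28 (SE 0.042, adjusted p = 7.8e-05 by edgeR). Srsf1 and Srsf3 passed in every alternative tried. Srsf2 (0.24, SE 0.043, adjusted p = 0.00040 by edgeR), Srsf11 (0.24, SE 0.044, adjusted p = 0.00049) and Srsf9 (−0.21, SE 0.043, adjusted p = 0.00098) were smaller, and stayed about as large with single libraries left out (0.21 to 0.25, 0.20 to 0.25 and −0.23 to −0.19), but not always past the threshold. Srsf2 no longer passed without Emx1-lineage 1, 2 or 3 or brain translatome 3 (adjusted p from 0.0018 to 0.0030), Srsf11 without Emx1-lineage 1, 2 or 3 or brain translatome 1 or 2 (0.0013 to 0.0052) and Srsf9 without any single one of the 6 libraries (0.0016 to 0.0090). Srsf9 measured 106, 111 and 104 RPKM in the Emx1-lineage against 129.7, 129.5 and 127.

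**Figure D5:**
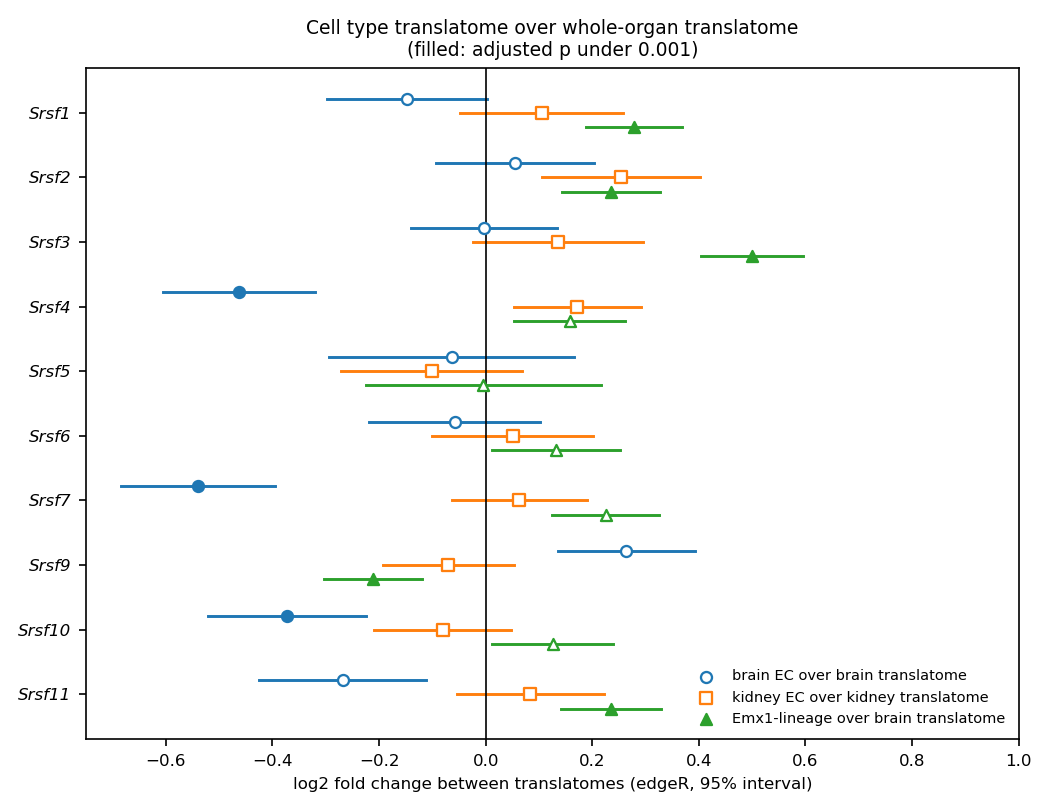
Log2 fold change (horizontal axis, 95% intervals from edgeR, n = 3 against 3) of the brain EC (blue circles), kidney EC (orange squares) and Emx1-lineage (green triangles) translatome over the translatome of the whole organ, filled where the adjusted p was under 0.001. Srsf4 (−0.46) and Srsf7 (−0.54) are lowest in brain EC, Srsf3 (0.50) highest in the Emx1-lineage, and all kidney EC symbols are open.

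The third comparison sets each lineage translatome against total RNA of the organ, the usual reading of such data when no whole-organ translatome exists. It mixes ribosome association with cell type. Srsf9 rose and Srsf5, Srsf6 and Srsf11 fell in all 3, although the Srsf6 call in kidney EC (−0.44, adjusted p = 0.00018 by edgeR) was lost without kidney EC 1 (adjusted p = 0.0015). In brain EC 1 member was higher and 7 were lower, where 26.8% of 19522 rows were higher and 24.3% lower. In kidney EC 1 was higher and 4 lower (22.7% and 18.4% of 19335 rows), and in the Emx1-lineage 2 were higher and 4 lower (25.4% and 23.8% of 19471 rows). Srsf9 had log2 fold changes of 1.20 in brain EC (SE 0.064, adjusted p = 2.9e-09 by edgeR), 0.90 in kidney EC (SE 0.045, adjusted p = 1e-07) and 0.78 in the Emx1-lineage (SE 0.050, adjusted p = 1.6e-09). Srsf11 had −1.25 (SE 0.075, adjusted p = 8.4e-09), −0.61 (SE 0.051, adjusted p = 3.3e-06) and −0.69 (SE 0.045, adjusted p = 2e-09). The member medians were −0.57 in brain EC, −0.19 in kidney EC and 0.02 in the Emx1-lineage. Those of mRNA rows with at least 20 RPKM were 0.25, 0.32 and 0.35. These comparisons share transcriptome libraries with those above, so their values are not independent of them. With total counts the median of all rows moved by −0.34, −0.44 and −0.15, and the share of higher among passing rows went from 52.4% to 35.4%, from 55.3% to 24.7% and from 51.6% to 39.6%.

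Set against the whole-organ translatome instead, the same lineages gave other answers for the same genes. Srsf6 had −0.84 in brain EC against total RNA (SE 0.069, adjusted p = 2.1e-07 by edgeR) and −0.06 against ribosome-bound RNA (SE 0.074, adjusted p = 0.51). In the Emx1-lineage Srsf9 was higher against total RNA and lower against the translatome. Srsf3 was higher against both, with 0.41 against total RNA (SE 0.043, adjusted p = 4e-07). Srsf11 was lower against total RNA and higher against the translatome.

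Between the total RNA of the organs, Srsf4 was higher and Srsf2, Srsf9 and Srsf10 were lower in the forebrain than in the kidney, where 27.2% of 19841 rows were higher and 26.3% lower. The log2 fold changes, forebrain over kidney, were 0.27 for Srsf4 (SE 0.042, adjusted p = 0.00013 by edgeR), −0.50 for Srsf2 (SE 0.053, adjusted p = 7.5e-06), −0.49 for Srsf9 (SE 0.048, adjusted p = 3.2e-06) and −0.22 for Srsf10 (SE 0.037, adjusted p = 0.00023). The RPKM ranges of Srsf4 overlapped between the organs (75.2 to 78.9 and 70.4 to 75.5). The Srsf10 call was lost without brain transcriptome 3 or kidney transcriptome 1 or 3 (adjusted p from 0.0011 to 0.0015). The kidney transcriptomes shared a sequencing lane and the brain transcriptomes did not all share one, so lane was not balanced between the organs. The part of lane in these values was not tested. With total counts the median of all rows moved by −0.18, 8 members were lower and none higher, and Srsf4 had 0.09 (adjusted p = 0.049). The share of all rows lower under that scaling is not given, so the count does not set the members apart.

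The mRNA rows whose level over the 21 libraries was most like the mean of the 10 members were Saal1 (Pearson r = 0.989), Nap1l1 (0.982), Tcp1 (0.979), U2surp (0.978) and Spata5 (0.977), among 10055 candidates with at least 5 RPKM, on log2(RPKM + 1). The 21 points share 7 groups and the RPKM scaling, so the values describe likeness only. Nap1l1 encodes a nucleosome assembly protein, Tcp1 a subunit of the cytosolic chaperonin and U2surp a protein of the U2 snRNP with an arginine-serine domain.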

How the data were processed

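The data are RNA-seq libraries of 21 samples. As deposited, each file gives per gene the raw read counts and the RPKM values, both computed by the authors with rpkmforgenes on the mm10 refGene annotation after mapping with RUM to GRCm38, from TruSeq v2 libraries. RPKM values were used for levels (SD over 3 samples) and counts for tests. Members, gene lists and tests were chosen with earlier results of these data known.

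Tests used edgeR 4.0.16 (R 4.3.3; TMM, glmQLFit and glmQLFTest) on rows with at least 1 count, with Benjamini-Hochberg adjustment and a threshold of 0.001, each comparison on its own samples. SE was taken from the fold change and F, and 95% intervals use the t distribution. Row lengths are counts divided by RPKM. Named genes were the 10 members, Srsf12, Tra2a, Tra2b, in every other list the highest and lowest passing gene without overlap in the forebrain comparison, and the 5 rows most like the members; protein sequences foreseen by that rule were not made. The script was tested on simulated data.

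Same-numbered transcriptome and translatome libraries came from the same tissue pool by the study's sample table. Over 10753 genes in the forebrain and 10830 in the kidney their deviations from group means correlated (r 0.324 to 0.698 and 0.653 to 0.755), while those with different numbers gave −0.499 to −0.0157 and −0.487 to −0.268. The negative values are no separate observation. Deviations from a group mean add up to 0, so positive same-number values make the others negative on average. Different numbers were different pools, so p-values measure the spread between pools. The alternatives were DESeq2 1.42.0, RLE size factors, total counts, at least 10 counts in 3 samples, mRNA rows only, the replicate block, a single fit of all samples, 1 sequencing lane, and each replicate left out; the lane fit of the organ difference was chosen after seeing the data.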

Additional observations from a re-analysis of the deposited data

Results flagged for a closer look

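The ribosome-bound to total log2 fold change of Srsf4 differed between forebrain and kidney by 0.391 (interaction over 12 libraries, adjusted p = 0.00076 by edgeR). In the 3 forebrain translatomes Srsf4 measured 70.6 to 78.3 RPKM and in the 3 kidney translatomes 52.7 to 53.7. The transcriptomes overlapped at 75.2 to 78.9 and 70.4 to 75.5 RPKM. By edgeR on counts, total RNA was called higher in the forebrain (log2 fold change 0.24 to 0.31 with single libraries left out). The interaction was 0.33 to 0.43 with single libraries left out, but did not always pass. Exons of the opposite-strand gene Gm12992 cover 43.0% of the exon bases of all annotated Srsf4 transcripts. Of the coding transcript, whose row is 2272 bases long, 1447 bases match Gm12992. The libraries carry no strand, so reads of that gene cannot be told apart, and their part in the difference was not tested.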

How the results depend on the processing

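In the 2 comparisons of translatome with transcriptome no member changed direction under any alternative tried, and the number of members passing stayed within 1.5 times of 6 in the forebrain (4 within 1 lane, 8 with the replicate block) and 7 in the kidney. For the organ difference the number of members passing was 1, against 2 with DESeq2, 0 within 1 sequencing lane per organ (chosen after seeing the data) and 0 to 1 with single libraries left out. For brain EC against the brain translatome it was 3, against 5 in a single fit of all samples, 7 with total counts and 2 to 3 with single libraries left out. For kidney EC against the kidney translatome it was 0, against 1 with DESeq2, 1 in the single fit and 4 with total counts. For the Emx1-lineage against the brain translatome it was 5, against 3 with at least 10 counts, 3 with total counts, 2 with the replicate block and 2 to 4 with single libraries left out. For kidney EC against the kidney transcriptome it was 5, against 8 in the single fit, 10 with total counts and 3 to 5 with single libraries left out. For the brain against the kidney transcriptome it was 4, against 8 with DESeq2 and 8 with total counts. Over single members, 1236 values under an alternative kept direction and side of the threshold, 58 newly passed, 49 no longer passed and 47 changed direction. The cause was not tested.

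With total counts, direction changed for brain EC against the brain translatome in Srsf2 (−0.2431) and Srsf9 (−0.03394), and for kidney EC against the kidney translatome in Srsf1 (−0.2635), Srsf2 (−0.114), Srsf3 (−0.2328), Srsf4 (−0.1969), Srsf6 (−0.3178), Srsf7 (−0.305) and Srsf11 (−0.2851). The same scaling turned Srsf2 (−0.04518) and Srsf7 (−0.1071) in the Emx1-lineage against the brain transcriptome, and Srsf11 (−0.126) between the transcriptomes. The organ difference of Srsf5 was −0.003303 with DESeq2, −0.002464 with RLE, −0.004655 with the replicate block, −0.007781 in the single fit, −0.004378 with total counts, −0.03277 within 1 lane per organ and −0.07771 to 0.1385 with single libraries left out. That of Srsf9 was −0.006047 with DESeq2, −0.005288 with RLE, −0.01089 in the single fit, −0.007856 with total counts and −0.0524 to 0.03423 with single libraries left out. In the Emx1-lineage against the transcriptome Srsf7 was −0.05797 in the single fit and Srsf1 0.0008104 with mRNA rows only. With single libraries left out, Srsf1 was −0.02321 to 0.001953 there. Brain EC against the translatome gave −0.02737 to 0.0388 for Srsf3 and −0.2016 to 0.009227 for Srsf5, and kidney EC gave −0.009098 to 0.09091 for Srsf6. The Emx1-lineage against the translatome gave −0.1386 to 0.08561 for Srsf5 (0.001986 with the replicate block), and kidney EC against the transcriptome −0.09974 to 0.02457 for Srsf3.

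The numbers pair the transcriptome and translatome libraries only. Across all rows, 9496 passed in the kidney with the replicate block against 5929 without it, and 3736 within 1 lane. For the organ difference 3445 passed with the block and 2669 with DESeq2 against 1301, and 308 within 1 lane per organ. Without kidney transcriptome 2 it was 850. Member rows held at least 2177 reads in every library, so depth did not limit these values, which rest on 3 pools a group.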
